A study of Homo sapiens with 3 samples.

Results

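The 8 genes described here encode growth factors of the VEGF and PDGF families other than VEGFA (VEGFB, VEGFC, PGF, PDGFA, PDGFB and PDGFC) and the neuropilins NRP1 and NRP2. They were picked by symbol from a table of read counts for 51136 genes, and all 8 were found there. The table held 3 RNA-seq libraries of PANC-1, an established human pancreatic carcinoma cell line grown in serum-containing medium. One library came from cells with no agent (control). Another came from cells given 200 μM ginsenoside Rg3, a triterpenoid saponin of ginseng, for 24 h (Rg3), and the last from cells given 50 μM tamoxifen, a selective estrogen receptor modulator, for 24 h (TAM). Whether the control received a vehicle, and whether a library pooled several cultures, is not given in the sources used here. Each group was 1 library, so no difference has a replicate check, no p-value is given, and each comparison is between libraries. Intervals are exact 95% intervals that cover counting error only.

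VEGF and PDGF family ligands are secreted dimers with a cystine-knot fold that bind receptor tyrosine kinases. VEGFB and PGF bind FLT1, VEGFC binds FLT4 and KDR, PDGFA and PDGFC act through PDGFRA, and PDGFB binds PDGFRB as well as PDGFRA. Neuropilins are membrane co-receptors with a short cytoplasmic tail that bind both VEGF family ligands and class 3 semaphorins, the latter together with plexins. Tumour cells commonly secrete such ligands, whereas most of the receptors are carried by endothelial cells, pericytes and fibroblasts.

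On GRCh38 with the GENCODE 29 annotation, all 8 were protein-coding genes. The VEGF ligands lay at chr11:64234538-64238793 on the plus strand (VEGFB), chr4:176683538-176792727 on the minus strand (VEGFC) and chr14:74941834-74955784 on the minus strand (PGF). The PDGF ligands lay at chr7:497258-520296 (PDGFA), chr22:39223359-39244751 (PDGFB) and chr4:156760454-156971394 (PDGFC), all on the minus strand. NRP1 lay at chr10:33177492-33336262 on the minus strand and NRP2 at chr2:205681990-205798133 on the plus strand. Exons of AL121748.2, on the opposite strand, overlapped 561 nt of NRP1 exons, and those of AC007362.1 overlapped 147 nt of NRP2 exons. Whether counting used strand is not given in the sources used here, so reads in these stretches cannot be assigned to either gene. Of the 50-base stretches of their transcripts, 1.57% in PGF, 0.235% in NRP2 and 0 in the other 6 also occurred in transcripts of other genes.

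Promoter sequences were taken from RefSeq on GRCh38.p14, where 5 of the 8 genes (VEGFB, VEGFC, PGF, PDGFA and NRP2) had an entry. The 250 bases before the RefSeq start are shown for PGF, NRP2 and VEGFC. PGF and NRP2 are the members whose low level in the Rg3 library was also found after a correction for base composition. VEGFC was not lower there. The windows were chr14:74955765-74956014 on the minus strand (PGF, the first of its 2 entries), chr2:205682251-205682500 on the plus strand (NRP2) and chr4:176792923-176793172 on the minus strand (VEGFC). RefSeq starts differ from the GENCODE gene bounds given above. The NRP2 window lies inside the GENCODE gene, that of PGF overlaps the gene's bound, and that of VEGFC lies apart from the gene. Capitals mark the GC box GGGCGG on either strand.
PGF: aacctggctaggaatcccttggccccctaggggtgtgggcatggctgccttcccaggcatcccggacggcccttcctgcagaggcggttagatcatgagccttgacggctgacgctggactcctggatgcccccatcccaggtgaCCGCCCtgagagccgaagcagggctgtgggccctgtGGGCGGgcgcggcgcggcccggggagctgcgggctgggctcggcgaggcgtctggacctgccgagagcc
NRP2: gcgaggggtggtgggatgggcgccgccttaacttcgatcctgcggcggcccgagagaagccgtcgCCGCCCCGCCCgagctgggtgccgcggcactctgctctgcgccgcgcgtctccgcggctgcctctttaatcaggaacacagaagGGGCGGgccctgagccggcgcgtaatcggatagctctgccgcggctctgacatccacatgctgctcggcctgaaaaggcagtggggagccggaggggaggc
VEGFC: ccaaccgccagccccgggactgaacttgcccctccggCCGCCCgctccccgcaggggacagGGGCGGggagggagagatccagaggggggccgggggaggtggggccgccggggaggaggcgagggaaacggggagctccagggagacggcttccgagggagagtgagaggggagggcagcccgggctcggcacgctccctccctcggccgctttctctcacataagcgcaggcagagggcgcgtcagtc
The GC box occurred 2 times in the PGF window, 3 times in that of NRP2 and 2 times in that of VEGFC, some of the matches overlapping. The VEGFB window held 6 matches and had the highest GC content of the 4, at 82.8%, against 74.0% for VEGFC, 70.8% for PGF and 70.0% for NRP2. Outside these windows, the second PGF entry held 3 matches at 80.0% GC, and the PDGFA entries held 1 to 5 at 68.8% to 81.6%. Of 35116 RefSeq promoters of this length, 42.6% held a GC box on either strand. The hypoxia response element core ACGTG was found in 18.5% of all promoters, the AP-1 motif TGANTCA in 6.57% and the TATA box TATAAA in 10.7%, and none of these letters was found in the 4 windows. A match describes the letters of a window only, and the start sites used in PANC-1 cells were not measured here.

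The libraries held 11300766 (control), 12861693 (Rg3) and 11321442 (TAM) counts over genes. Levels are CPM, counts relative to library size, scaled by the trimmed mean of M values (TMM), and at this depth 3 counts corresponded to 0.208 to 0.301 CPM. A gene was called higher or lower when its fold exceeded 1.5 or lay under 0.67, with at least 10 counts in either library. Scaling by the totals alone moved every log2 fold change by 0.14 (Rg3 against control), -0.21 (TAM against control) and -0.35 (TAM against Rg3). Fold changes followed the GC content of the transcript, with a Spearman rho across genes, which are not independent replicates, of -0.81 over 11971 genes with at least 50 counts for Rg3 against control and 0.51 over 11386 genes for TAM against control. A loess trend on GC content and transcript length was therefore removed in an alternative, whose values are given for the members, the ratios and the list counts. Of the epithelial and PANC-1 markers, 7 of 7 had reads in every library, and VIM (39783 to 55276 counts), KRT8 and KRT18 were the most abundant. In the Rg3 library 6 of these 7 were called lower, where 19.5% of all genes compared were. In the TAM library 3 were called lower (KRT19, EPCAM and CDH1), where 23.8% were, and 1 higher (KRT7), where 17.4% were. EPCAM had 26 counts in control and 8 in TAM, and CDH1 had 76 and 5. With the trend removed 5 of the 7 were lower with Rg3, where 11.0% of all genes were. For TAM the same 3 were lower, where 16.5% were, and 0 were higher, where 12.7% were. The summed level of the 7 markers, most of it from VIM, was 3851 CPM with Rg3 against 7214 in control and 7049 in TAM. Markers of other cell types gave summed levels of 10.8 to 22.5 CPM (8 endothelial genes), 77.8 to 182 CPM (7 fibroblast and pericyte genes), 32.8 to 114 CPM (5 leukocyte genes) and 0.625 to 2.61 CPM (3 platelet genes). COL1A1 alone made up 161 of the 182 CPM in control, and CD68 alone 111 of the 114 CPM in TAM. DCN, LUM, PTPRC and LYZ had 0 to 2 counts in each library, whereas COL3A1 had 89 to 214 and CD14 had 37 to 97. The endothelial markers CDH5 and CLDN5, the T cell marker CD3E and all 5 acinar and islet genes, among them PRSS1 and INS, had 0 counts in all 3 libraries. The part of these marker differences in the results below was not tested. In such bulk libraries fewer cells of a kind and less RNA per cell cannot be told apart.

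In the control library PDGFB was the most abundant of the 8 and VEGFC the least. As RPKM, the scaled CPM divided by the length of the longest transcript in kilobases, PDGFB, the ligand by which endothelial cells recruit pericytes, reached 47.6 (45.5 to 49.8). VEGFB, a ligand of FLT1, followed at 30.5 RPKM (27.9 to 33.4). The other 6 lay far lower. Among them NRP1 at 7.45 (6.81 to 8.13), PGF at 6.33 (5.58 to 7.15) and NRP2 at 6.30 (5.75 to 6.89) had intervals that overlapped. PDGFA at 4.04 (3.31 to 4.89) and PDGFC at 3.43 RPKM (2.92 to 3.996) also overlapped, and VEGFC at 1.90 (1.39 to 2.54) lay under both. Dividing by the length of all exons together gave the same place to 6 of the 8 and exchanged PDGFA with PDGFC. The order changed most for PGF, which held place 4 in control, place 8 in the Rg3 library with 2.56 RPKM and place 3 in the TAM library with 10.1 RPKM. PDGFB and VEGFB kept the first places in all 3 libraries, at 23.1 and 17.8 RPKM with Rg3 and 47.8 and 41.8 RPKM with TAM.

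**Figure D1:**
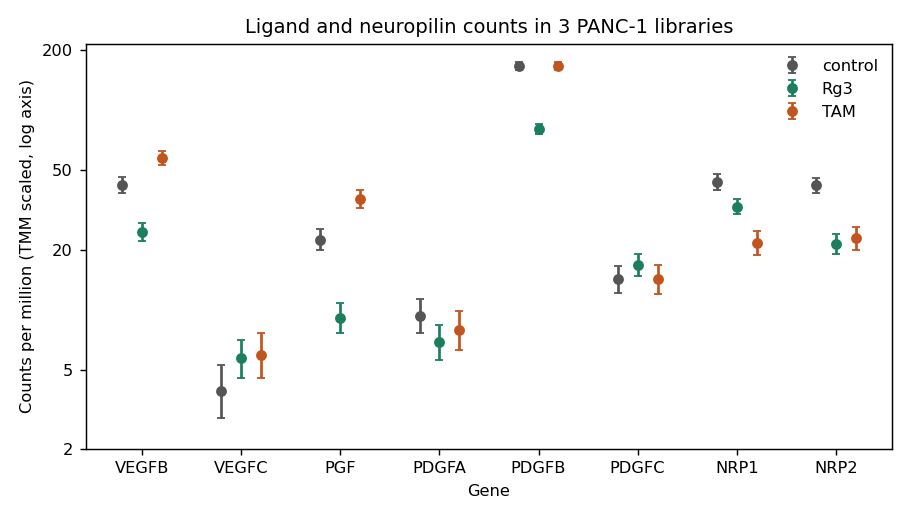
Level of each of the 8 genes in the control, Rg3 and TAM libraries, in TMM-scaled CPM on a log axis, with 1 point per library and exact 95% intervals for counting error only. PDGFB is the highest gene in each library, the Rg3 points of PGF, PDGFB, VEGFB and NRP2 lie under those of control, and the TAM points of NRP1 and NRP2 lie under those of control.

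Counted together, 4 of the 8 genes were called lower with Rg3 (VEGFB, PGF, PDGFB and NRP2), against 19.5% of the 16487 genes compared, and 0 were called higher, against 25.0%. Their median log2 fold change was -0.61, beside 0.04 over all genes compared. With TAM, 2 genes were lower (NRP1 and NRP2), where 23.8% of 16079 genes were, and 2 were higher (VEGFC and PGF), where 17.4% were. These counts, 2 of 8 in each direction, were near the background, and the median of the 8, 0.00, lay beside -0.02 over all genes. Between the treated libraries, 1 gene was lower in TAM than in Rg3 (NRP1) against 35.4% of 16493 genes, and 3 were higher (VEGFB, PGF and PDGFB) against 30.0%. The comparisons with control share the control library.

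PGF, placenta growth factor, gave the widest spread of the 3 VEGF family ligands. It had 258 counts in control, 131 in Rg3 and 358 in TAM, or 22.5, 9.10 and 36.0 CPM. It was thus lowest with Rg3 and highest with TAM, and none of the 3 counting intervals overlapped. The log2 fold change was -1.30 (-1.62 to -0.996) with Rg3, a level 0.405 times that of control, and 0.68 (0.44 to 0.92) with TAM, or 1.60 times control. Between both treated libraries it was 3.95 times higher in TAM, with a log2 difference of 1.98 (1.69 to 2.28). Once corrected for that trend, the log2 value was -0.95 for Rg3, 0.47 for TAM and 1.43 for TAM against Rg3, so that the higher level in TAM than in control was no longer past the fold. It was not past it with library totals either, at 0.47. Among all genes compared, the PGF value lay at percentile 3.72 for Rg3 and 86.4 for TAM.

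VEGFB had 484 counts in control, 354 in Rg3 and 574 in TAM, or 42.2, 24.6 and 57.7 CPM. It took the same order over the libraries as PGF, with a narrower range. Its log2 fold change was -0.78 (-0.98 to -0.58) with Rg3, which was called lower, and 0.45 (0.28 to 0.63) with TAM, which was not past the fold. VEGFB has the most GC-rich transcript of the 8, at 66.7%, and the trend at its GC content and length was -0.68 for Rg3 and 0.57 for TAM. After its removal -0.10 and -0.12 were left, and neither was past the fold.

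VEGFC, a lymphatic growth factor, had the fewest reads, with 45 counts in control, 82 in Rg3 and 59 in TAM, or 3.92, 5.69 and 5.93 CPM. Both treated libraries lay above control, and the counting intervals were wide. The log2 fold change with Rg3 was 0.54 (-0.003 to 1.10), short of the fold, and with TAM it was 0.60 (0.01 to 1.19), which at 1.51 times control was just past it. With the trend removed these became 0.68, which was past the fold, and 0.33, which was not. Library totals also exchanged the calls, at 0.68 with Rg3 and 0.39 with TAM. Relative to VEGFB in the same library, a ratio that no scaling changes, VEGFC reads stood at 0.0930 in control, 0.232 in Rg3 and 0.103 in TAM, so that the ratio with Rg3 was 2.49 times (1.66 to 3.76) that of control, or 1.71 times with the trend removed. The VEGFC transcript has a GC content of 51.4%, lower than that of VEGFB.

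PDGFB had by far the most reads, with 1913 counts in control, 1164 in Rg3 and 1664 in TAM, or 167, 80.8 and 167 CPM. The Rg3 library alone was low, and control and TAM overlapped. The log2 fold change was -1.04 (-1.15 to -0.94) with Rg3, a level 0.485 times control, and 0.01 (-0.09 to 0.10) with TAM. After removal of the trend the Rg3 value was -0.48, short of the fold, and the TAM value -0.34. The difference of TAM against Rg3 fell from 1.05 (0.94 to 1.16) to 0.16 in the same way.

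Neither of the other PDGF ligands was past the fold against control. PDGFA had 107 counts in control, 99 in Rg3 and 79 in TAM (9.32, 6.88 and 7.94 CPM). Its log2 fold changes of -0.44 (-0.85 to -0.03) with Rg3 and -0.23 (-0.67 to 0.20) with TAM became -0.22 and -0.52 with the trend removed, where PDGFB had -0.34 with TAM. PDGFC, a ligand secreted in a latent form, had 164, 242 and 142 counts (14.3, 16.8 and 14.3 CPM), and its 3 levels overlapped, with log2 fold changes of 0.23 (-0.06 to 0.53) for Rg3 and -0.002 (-0.34 to 0.33) for TAM. Trend removal turned the sign of both, to -0.44 and 0.45. For TAM against Rg3 the PDGFC value of -0.24 (-0.55 to 0.07) was not called, but it became 0.90, called higher, with the trend removed and -0.59, called lower, with library totals, so its direction depended on the scaling. Within a library, PDGFB had 11.7 times the reads of PDGFC in control, 4.81 times in Rg3 and 11.7 times in TAM. The ratio with Rg3 was 0.412 times (0.332 to 0.512) that of control. PDGFB and PDGFC are 20.1 percentage points apart in GC content, and with the trend removed the change of this ratio was 0.970 with Rg3 and 0.582 with TAM, where it had been 1.00 (0.790 to 1.28).

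NRP1 and NRP2 were the members called lower in the TAM library. NRP1, which binds VEGFA and SEMA3A, had 503 counts in control, 474 in Rg3 and 215 in TAM, or 43.8, 32.9 and 21.6 CPM. NRP2, which binds VEGFC and SEMA3F, had 482, 307 and 227 counts, or 42.0, 21.3 and 22.8 CPM. Under TMM, NRP1 was therefore lowest with TAM, with Rg3 between, whereas NRP2 was about equally low with both agents. For TAM against Rg3 the log2 value was -0.61 (-0.85 to -0.37) for NRP1 and 0.10 (-0.16 to 0.35) for NRP2. With the trend removed these became 0.30 and 0.42, neither past the fold, so the order of the agents depended on that correction. The log2 fold change with TAM was -1.02 (-1.26 to -0.79) for NRP1 and -0.88 (-1.11 to -0.65) for NRP2, and with Rg3 it was -0.41 (-0.60 to -0.23) for NRP1, not past the fold, and -0.98 (-1.19 to -0.77) for NRP2. In the same library the NRP1 to NRP2 ratio of reads was 1.04 in control, 1.54 in Rg3 and 0.947 in TAM. Its change was 1.48 times (1.22 to 1.80) with Rg3 and 0.908 times (0.720 to 1.14) with TAM, or 1.11 and 1.02 times with the trend removed.

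Removal of the trend changed the neuropilin calls in opposite ways for the agents. With Rg3 the log2 value of NRP1 became -0.79 and that of NRP2 -0.94, and both were past the fold. With TAM the values became -0.53 and -0.56, and neither was. NRP1 has 44.7% GC, where the trend for Rg3 was upward at 0.38 and that for TAM downward at -0.49. The direction stayed the same for both neuropilins in both comparisons with control under TMM, totals, DESeq2 size factors and trend removal. Summed over both genes, 985 counts in control stood against 781 in Rg3 and 442 in TAM, with log2 fold changes of -0.66 (-0.80 to -0.52) and -0.95 (-1.12 to -0.79).

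**Figure D2:**
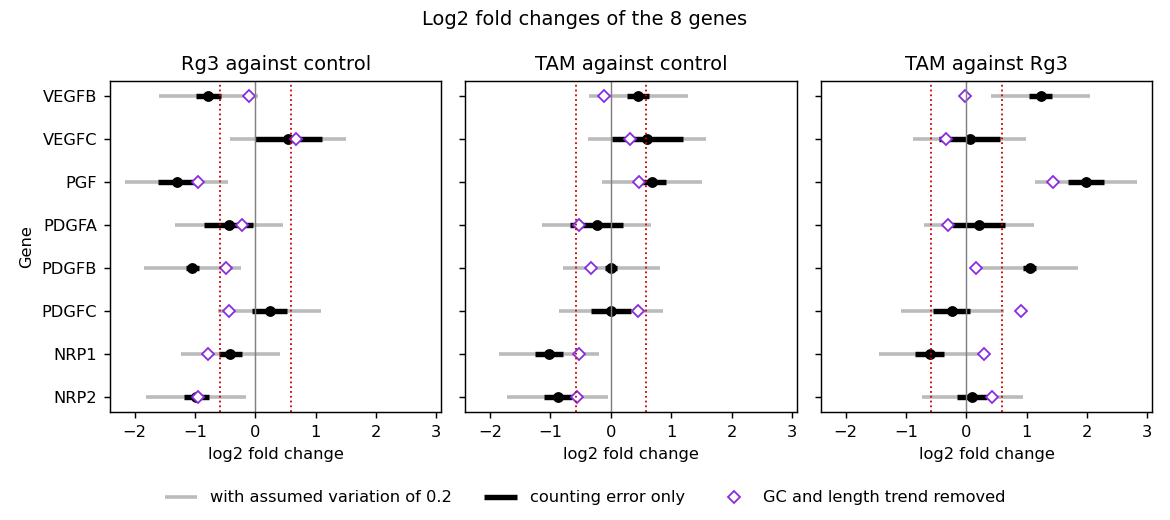
Log2 fold change of each of the 8 genes against control and between the treated libraries, with TMM scaling (black points, black bars for exact 95% intervals of counting error, grey bars with an assumed variation of 0.2 added) and after correction for the trend with base composition and transcript length (open diamonds), and dotted lines at the fold limits. The values of PGF and NRP2 against control with Rg3 stay past the fold in both, and those of VEGFB and PDGFB move toward 0 when the trend is removed.

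Over the 8 genes with the trend removed, 3 genes were lower with Rg3 (PGF, NRP1 and NRP2) against a background of 11.0%, and 1 was higher (VEGFC) against 8.16%. In the TAM library 0 of the 8 were lower, against 16.5%, and 0 were higher, against 12.7%. For TAM against Rg3, 0 were lower against 19.0% and 2 were higher (PGF and PDGFC) against 19.9%. The 4 genes lower with Rg3 under TMM and the 3 lower without the trend shared PGF and NRP2. For transcripts with a GC content close to that of PGF (54.9%), 10% of genes lay under -0.88 with Rg3. Close to that of NRP2 (50.4%) 10% lay under -0.52, and both genes were below these limits. NRP1 (44.7%), at -0.41, was also below its limit of -0.04. VEGFB, at -0.78 with a limit of -1.22, and PDGFB, at -1.04 with a limit of -1.05, were not. When a biological coefficient of variation of 0.2 was assumed and added to the counting error, the interval with Rg3 was -2.16 to -0.45 for PGF, -1.85 to -0.24 for PDGFB, -1.80 to -0.15 for NRP2 and -1.60 to 0.05 for VEGFB. That variation was assumed, since 1 library per group gives no measure of it.

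**Figure D3:**
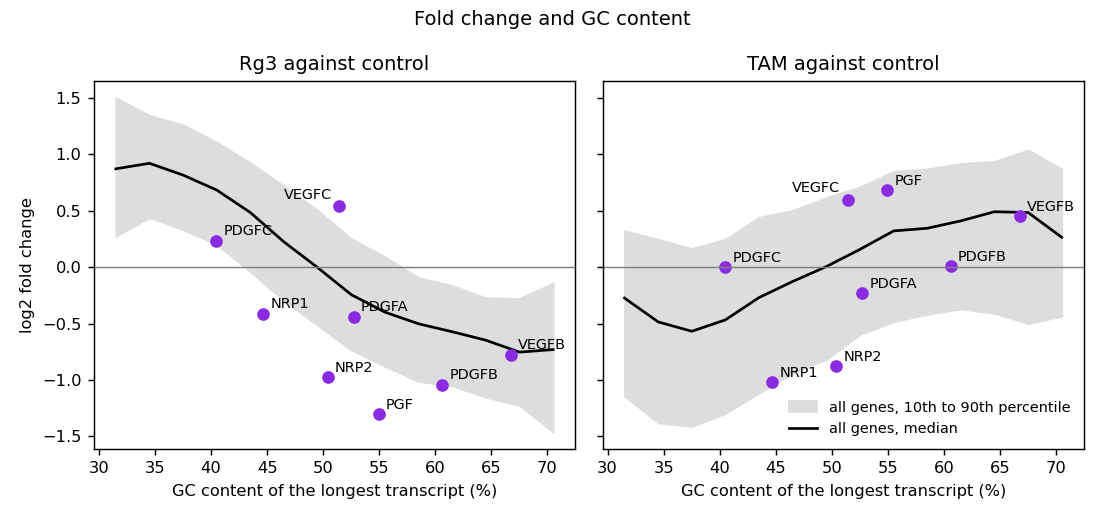
Log2 fold change (TMM) against the GC content of the longest transcript for Rg3 and TAM, with the median (line) and the range from percentile 10 to 90 (band) of all genes with at least 50 counts in bins of GC content, and the 8 genes as points. Over most of the range the medians slope down with Rg3 and up with TAM, and PGF, NRP1 and NRP2 lie under the band for Rg3.

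VEGFA, the best-known ligand of the family, had 734 counts in control, 857 in Rg3 and 991 in TAM. Its log2 fold change was -0.10 (-0.25 to 0.04) with Rg3 and 0.64 (0.50 to 0.78) with TAM, past the fold under TMM but not with library totals, where it was 0.43. With the trend removed it was 0.06 with Rg3 and 1.201 with TAM, or 2.30 times control. The latter depends on the transcript length used, 12167 nt, where the trend was -0.56, and no other length was tried. VEGFA and PGF share the receptor FLT1 and their transcripts are 0.30 percentage points apart in GC content. This pair was chosen after the counts were seen. Reads of VEGFA were 2.84 times those of PGF in control, 6.54 times in Rg3 and 2.77 times in TAM. The change of this ratio was 2.30 times (1.81 to 2.92) with Rg3 and 0.973 times (0.804 to 1.18) with TAM, past counting error with Rg3 and within it with TAM. The longest transcripts differ in length, 12167 nt for VEGFA and 3549 nt for PGF, where the TAM trend was -0.56 and 0.21. With the trend removed the change was 2.01 times with Rg3 and 1.66 times with TAM. Only the Rg3 change had a similar size both ways, and the corrected changes depend on the lengths used. PDGFD had 0, 9 and 3 counts, and FIGF, the gene of VEGFD, had 0 in all 3.

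Apart from KDR, the receptors of these ligands had few reads or none. PDGFRA had 0 counts in each library, FLT4 had 0, 1 and 0, FLT1 had 1, 2 and 0, and PDGFRB had 4 in each. The ligands were thus read in libraries with few or no reads of most of their receptors. KDR, the main signalling receptor of VEGFA, had 49, 54 and 52 counts, with log2 fold changes of -0.19 (-0.77 to 0.40) with Rg3 and 0.29 (-0.30 to 0.89) with TAM, or -0.38 and 0.70 with the trend removed, the latter called higher. PDGFRL, a receptor-like gene without a kinase, had 7, 12 and 10 counts. Of the 2 genes compared in this list it was the 1 called higher with TAM, where 17.4% of all genes were. Its log2 fold change, from 7 and 10 counts, was 0.72 (-0.82 to 2.35). None was called with Rg3, where 19.5% of all genes were lower and 25.0% higher. With the trend removed PDGFRL was called higher with Rg3 (0.63), where 8.16% of all genes were, and not with TAM (0.41), where 12.7% were. Library totals likewise gave 1 gene of the list higher with Rg3, against 31.4% of all genes, and 0 with TAM, against 9.80%.

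Class 3 semaphorins, the other ligands of neuropilins, and their plexins gave 10 genes compared of 12 listed. In the Rg3 library 5 of them were called lower and 1 higher (median log2 fold change -0.60), whereas in the TAM library 4 were called lower and 1 higher (median -0.48). Over all genes compared 19.5% were lower and 25.0% higher with Rg3, and 23.8% lower and 17.4% higher with TAM. Those lower with Rg3 were the neuropilin ligands SEMA3F (652, 420 and 384 counts in control, Rg3 and TAM), SEMA3G (60, 44 and 20) and SEMA3B (26, 10 and 22), and the plexins PLXNA1 (1402, 873 and 1293) and PLXND1 (3057, 1938 and 2001). With TAM the lower genes were SEMA3A (42, 68 and 14), SEMA3C (1313, 1897 and 466), SEMA3E (63, 112 and 11) and SEMA3G. SEMA3C had the most reads of these, with a log2 fold change of -1.29 (-1.44 to -1.13), and SEMA3E, which binds PLXND1 without a neuropilin, gave -2.31 (-3.39 to -1.38). Those 2 were not called with Rg3, where their values were 0.20 and 0.50. PLXNA2, with 2, 10 and 23 counts, was the 1 gene higher in both. SEMA3A, SEMA3B and PLXNA2 had under 50 counts in control and TAM and, like ADAMTS3 and PLAT below, were named after their values were seen, to complete the counts. With the trend removed, the Rg3 calls shrank to 1 lower and 1 higher, where 11.0% and 8.16% of all genes were called. The TAM calls were 4 lower and 1 higher, where 16.5% and 12.7% were, with SEMA3F (-0.90) entering and SEMA3A (-0.53) no longer called.

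Proteases that cut these ligands differed between the agents. FURIN, a proprotein convertase that processes VEGFC and PDGF precursors, had 1840 counts in control, 1283 in Rg3 and 2591 in TAM. It was lower with Rg3 at a log2 fold change of -0.85 (-0.95 to -0.74) and higher with TAM at 0.70 (0.61 to 0.79). PLAU, the urokinase plasminogen activator, had 4120, 3511 and 7627 counts and was called only with TAM, at 1.09 (1.04 to 1.15). PCSK6, a related convertase, had 468, 321 and 306 counts and was lower with Rg3 at -0.87 (-1.08 to -0.66). Of the list, against those same shares of all genes, 2 were lower and 1 higher of 6 with Rg3, where the higher was ADAMTS3 with 8 and 18 counts, and 0 were lower and 3 higher of 5 with TAM, where the remaining one was PLAT with 13 and 24 counts. With the trend removed none of the 6 was past the fold with Rg3, where 11.0% of all genes were lower and 8.16% higher. For TAM 3 of 5 were then higher, where 12.7% were, namely PLAU (0.81), PLAT (1.24) and PCSK7 (1.07). The FURIN call with TAM was lost with the trend removed (0.44) and with library totals (0.49). Under totals 1 of the list was lower with TAM and 2 were higher, against 32.7% and 9.80% of all genes.

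Among 18 adaptors and first kinases below the receptors, the Rg3 library had 1 lower and 8 higher calls (median log2 fold change 0.43), where 19.5% and 25.0% of all genes compared were called. The TAM library had 8 lower and 2 higher (median -0.50), where 23.8% and 17.4% were. The gene lower with Rg3 was SRC, a kinase recruited to both receptor families, with 409, 239 and 302 counts and a log2 fold change of -1.10 (-1.34 to -0.87). Examples of those higher with Rg3 and lower with TAM were PIK3CA, the catalytic subunit of PI3-kinase (121, 331 and 50 counts), SOS1, a Ras exchange factor (189, 513 and 82), and the Src family kinase YES1 (416, 878 and 163). The log2 fold change of PIK3CA was 1.13 with Rg3 and -1.07 with TAM, that of SOS1 1.11 and -0.998, and that of YES1 0.75 and -1.15. GIPC1, whose PDZ domain binds the tail of NRP1, had 2515, 2359 and 3699 counts and was higher with TAM at 0.76 (0.69 to 0.84), opposite to NRP1. With the trend removed only SRC was called with Rg3 (-0.58) and only PIK3R1, a regulatory subunit of PI3-kinase, with TAM (-0.67), both lower, so that PIK3CA, SOS1, YES1 and GIPC1 were no longer called. Of all genes compared, 11.0% were lower and 8.16% higher with Rg3 without the trend, and 16.5% and 12.7% with TAM. Division by totals gave 1 lower and 9 higher with Rg3, where 14.1% and 31.4% of all genes were called. For TAM it gave 11 lower and 0 higher, where 32.7% and 9.80% were, so that GIPC1 was no longer called there.

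**Figure D4:**
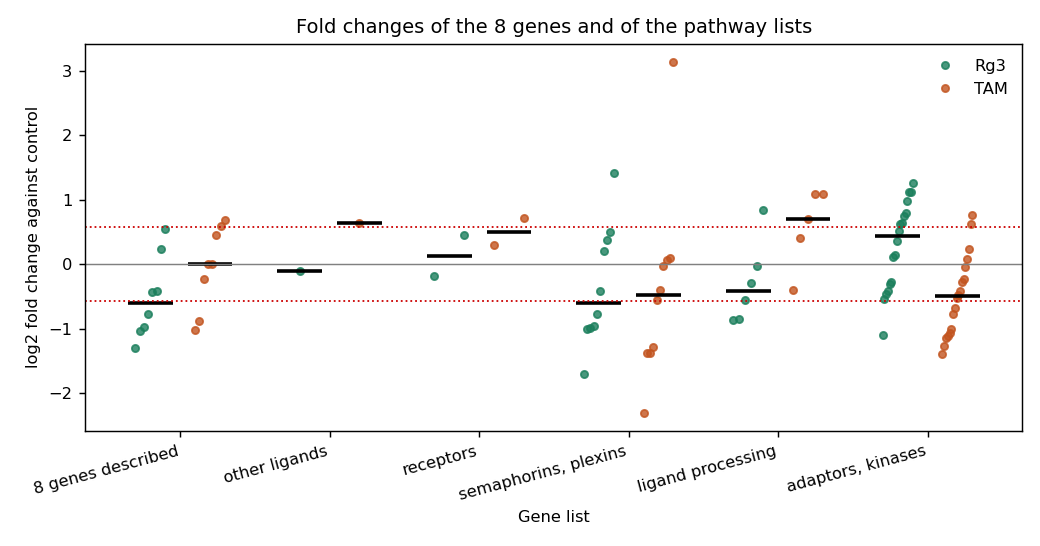
Log2 fold change (TMM) of the genes compared in each list of the pathway, for Rg3 and TAM, with 1 point per gene, a bar at the median of each list and dotted lines at the fold limits. The median of the adaptors and kinases is 0.43 with Rg3 and -0.50 with TAM, and that of the 8 genes is -0.61 with Rg3 and 0.00 with TAM.

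The genes nearest to each called member in the plane of both log2 fold changes against control were searched among 8425 genes with at least 100 counts in each library, over 2 values per gene that share the control. PGF had WDR18, USE1 and OBSL1 as its nearest, at distances of 0.0614 to 0.110, and NRP2 had DCLK2, HSPG2 and EVPL at 0.0842 to 0.103. NRP1 lay nearest to IQSEC1, ZMYND8 and C10orf54 (0.0340 to 0.0705), and PDGFB to WNT7B, LOC728688 and HOXC9 (0.0338 to 0.0478). VEGFB had ORAI3, AVEN and PEX14 (0.0136 to 0.0233), and VEGFC had M6PR, AGPAT9 and PEA15 (0.00629 to 0.0163). Both had closer neighbours than PGF and NRP2, which lay farther out among the genes. The distances used TMM values only, without removal of the trend, and took no account of counting error. VEGFC itself, at 45 to 82 counts, was under the 100 asked of the genes searched. Its counting intervals, -0.003 to 1.10 with Rg3 and 0.01 to 1.19 with TAM, were far wider than its distances, so its nearest genes are not well determined.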

How the data were processed

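PANC-1 total RNA was sequenced on the Ion Proton platform, and the authors deposited whole-number read counts per gene, not normalized. TopHat alignment is described for the reads, the submitters' processing notes name GRCh38, and the annotation, counting tool and strand setting are not given in the sources used here. Here the counts of 3 libraries, 1 per group, were scaled with TMM (edgeR 4.0.16 in R 4.3.3) over all genes. Counts under 3 were raised to 3, a gene entered a comparison when either library held at least 10 counts, and Clopper-Pearson 95% intervals were computed with scipy 1.17.1 (Python 3.11.15). Reads may share a template, so intervals cover counting error only. No edgeR or DESeq2 test was run for 1 library per group, and limma, which the study used, needs replicates. Alternatives were library totals, DESeq2 1.42.0 size factors, removal of a loess trend (span 0.3, fitted to genes with at least 50 counts) on GC content and length of the longest GENCODE 29 transcript, minimums of 1 and 50 counts, 2-fold limits, whole intervals past the fold and an added variation of 0.2. The code was tested on simulated data.

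Genes were named as follows: all 8 members, list genes past the fold with at least 50 counts in 1 library compared, VEGFA, GIPC1 and the receptors, and the 3 nearest genes of each member called against control. Members and lists were chosen with earlier results of these data known, and the ratio pairs after the counts were seen. A planned comparison of protein sequences was not run, as no protein table was used here.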

Additional observations from a re-analysis of the deposited data

How the results depend on the processing

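No paired analysis was possible because no group had more than a single library, and for the same reason no replicate could be left out. Of 24 member values (8 genes in 3 comparisons), DESeq2 size factors kept all 24 within their counting intervals, division by totals 15 and trend removal 7. Trend removal changed the sign of the called differences of TAM against Rg3 for VEGFB (-0.0135) and NRP1 (0.297). Neither of these values was past the fold, and that of VEGFB was near 0. Of the counts of members, 2-fold limits left 2 lower with Rg3, 1 lower and 0 higher with TAM, and 0 lower in TAM than in Rg3. Totals gave 1 higher with Rg3, 0 higher with TAM and 2 lower in TAM than in Rg3, and trend removal gave 1, 0 and 0, with 0 lower with TAM. The added variation of 0.2 counted members past the fold whose interval excluded 0, a weaker rule than whole intervals past the fold. Whole intervals past the fold and the added variation of 0.2 each left 0 higher with TAM and 0 lower in TAM than in Rg3, as DESeq2 size factors did for the latter (0). The cause was not tested. Minimums of 1 or 50 counts changed no count of members.

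Over all genes compared, totals gave 14.1% lower and 31.4% higher with Rg3 and 32.7% lower and 9.80% higher with TAM. The counts of genes lower and higher were 3223 and 4122 with Rg3, 3823 and 2799 with TAM, and 5843 and 4950 for TAM against Rg3. Totals lowered the higher counts to 1576 (TAM) and 3105 (TAM against Rg3). In the same order as the full counts, trend removal gave 1626 and 1207, 2397 and 1841, then 2807 and 2944. The 2-fold limits gave 1149 and 1470, 1824 and 862, then 3998 and 2781. Whole intervals gave 1231 and 1464, 1393 and 1082, then 3587 and 3206. Added variation, with its weaker rule, gave 1237 and 1641, 1695 and 1018, then 3839 and 3261. Depth limits VEGFC most, with 45 to 82 counts, and most receptors gave no comparison.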
